A study of Homo sapiens with 8 samples.

Results

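The chromatin regulators described here act against Polycomb silencing: the H3K27 demethylases KDM6A and KDM6B, the acetyltransferases CREBBP and EP300, the H3K4 methyltransferases KMT2A, KMT2C and KMT2D, the SWI/SNF subunits ARID1A and SMARCA4, and the H2A deubiquitinase BAP1. Members were all probe sets, the groups of short probes that read one transcript, whose single gene symbol in the platform annotation is one of these 10 genes. The rule found 51 probe sets of 54675 on the array, and they belong to 9 of the 10 genes. BAP1 was not analysed here. KDM6A had 4 probe sets, KDM6B 5, CREBBP 4, EP300 2, KMT2A 11, KMT2C 6, KMT2D 6, ARID1A 4 and SMARCA4 9. A probe set annotated to BAGE2 and BAGE5 as well as KMT2C was left out.

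RNA was measured on 8 Affymetrix HG-U133 Plus 2.0 arrays from cultures of 2 human acute lymphoblastic leukaemia lines. The groups, each with 2 replicates that the labels call biological, were SUP-B8 with GSK126, SUP-B8 with DMSO, NALM-6 with GSK126 and NALM-6 with DMSO. GSK126 selectively inhibits EZH2, the H3K27 methyltransferase of Polycomb repressive complex 2, and was given at 0.5 uM for 72 hours, while DMSO is its vehicle. The EZH2 genotype of the lines is not given in the labels of the samples, and each line is a single established line.

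Polycomb repressive complex 2 places methyl groups on lysine 27 of histone H3, and genes marked in this way stay silent. KDM6A and KDM6B remove these methyl groups, CREBBP and EP300 acetylate the same residue, and KMT2 enzymes methylate lysine 4 at promoters and enhancers. SWI/SNF complexes move nucleosomes and evict Polycomb proteins, and several of these genes, CREBBP and KMT2D among them, are recurrently mutated in B-cell malignancies.

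The arrays had medians between 7.18 and 7.24 on the deposited log2 scale. Replicate arrays correlated at r between 0.9977 and 0.9982 over all probe sets, and pairs of arrays from both lines at r between 0.9203 and 0.9289. The points are probe sets, which are not independent replicates. B-lineage markers lay above the array medians for 6 of 6 genes in all 4 groups, and myeloid markers for 0 of 6. Early B-cell markers did so for 10 of 10 genes on the arrays labelled SUP-B8 but for only 3 of 10, CD34, MME and VPREB3, on those labelled NALM-6, where DNTT, RAG1, RAG2, IGLL1, VPREB1, ERG and CD24 did not. NALM-6 is known as a precursor B-cell line, so the lines are called by their labels throughout, and every difference between them is a difference between arrays so labelled. The mean level of the mature B-cell list was between 8.65 and 8.67 on SUP-B8 arrays with GSK126 and between 8.43 and 8.46 with DMSO, and at 11.07 on both NALM-6 arrays with GSK126 and between 11.26 and 11.29 with DMSO. Among T-cell genes, 4 of 6, which were CD247, CD3D, CD3E and LCK, lay above the array medians in all 4 groups. The part of any of these lists in the results below was not tested. EZH2 itself read 11.22 and 11.18 with GSK126 and 11.13 and 11.28 with DMSO on SUP-B8 arrays, and 11.24 and 11.19 with GSK126 and 11.17 and 11.25 with DMSO on NALM-6 arrays. GSK126 blocks the protein, so its transcript level does not check the treatment.

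All values below are log2 levels, and a difference is a difference of log2 levels, so that 1 stands for a doubling. Levels of different probe sets are not comparable and are not set against each other. A probe set was tested if it lay above the array median on at least 2 of the 8 arrays, which 40 of the 51 member probe sets did. The other 11 lay below the array medians on all 8 arrays. They were 1 probe set each of KDM6A, CREBBP, KMT2D and ARID1A, 2 each of KMT2A and SMARCA4, and 3 of KMT2C. A probe set was called at an adjusted p under 0.05, from limma with Benjamini-Hochberg adjustment over all 24848 probe sets tested.

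The promoters of KDM6A, KMT2A, KMT2D and SMARCA4 are shown because these genes carry most of the differences described below. RefSeq has 12 promoter entries for the 9 genes in GRCh38.p14, each of 300 bases from 250 before to 50 after the start. Capitals mark GC boxes, GGGCGG read on either strand. The windows are chrX:44872938-44873237 on the plus strand for KDM6A, chr11:118436242-118436541 on the plus strand for KMT2A, chr12:49060745-49061044 on the minus strand for KMT2D and chr19:10960780-10961079 on the plus strand for SMARCA4. Each includes the first bases of the transcript and the sequence just upstream of it.
KDM6A: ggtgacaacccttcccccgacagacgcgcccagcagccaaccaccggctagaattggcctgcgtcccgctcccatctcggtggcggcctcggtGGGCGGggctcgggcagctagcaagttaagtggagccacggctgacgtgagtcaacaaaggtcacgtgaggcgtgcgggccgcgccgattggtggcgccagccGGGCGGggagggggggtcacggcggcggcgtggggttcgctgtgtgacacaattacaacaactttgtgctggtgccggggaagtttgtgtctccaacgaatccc
KMT2A: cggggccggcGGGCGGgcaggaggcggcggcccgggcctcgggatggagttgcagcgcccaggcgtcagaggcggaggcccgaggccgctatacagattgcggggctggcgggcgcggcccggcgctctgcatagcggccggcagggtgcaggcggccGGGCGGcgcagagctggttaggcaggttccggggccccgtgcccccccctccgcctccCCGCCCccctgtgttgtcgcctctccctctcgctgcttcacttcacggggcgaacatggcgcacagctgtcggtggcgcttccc
KMT2D: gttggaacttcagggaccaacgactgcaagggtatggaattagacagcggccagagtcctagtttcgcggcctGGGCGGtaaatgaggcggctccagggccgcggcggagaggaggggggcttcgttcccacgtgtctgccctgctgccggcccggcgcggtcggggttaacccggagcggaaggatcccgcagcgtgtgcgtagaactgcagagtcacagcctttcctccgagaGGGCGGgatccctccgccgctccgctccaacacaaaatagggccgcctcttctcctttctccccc
SMARCA4: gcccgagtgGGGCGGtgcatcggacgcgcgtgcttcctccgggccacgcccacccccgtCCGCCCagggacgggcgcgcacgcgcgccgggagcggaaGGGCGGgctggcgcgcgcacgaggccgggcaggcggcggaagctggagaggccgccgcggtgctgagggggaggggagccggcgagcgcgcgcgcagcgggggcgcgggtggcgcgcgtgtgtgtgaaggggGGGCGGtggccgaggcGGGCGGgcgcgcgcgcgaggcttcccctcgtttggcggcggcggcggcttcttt

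These windows held 29 CG dinucleotides for KDM6A, 36 for KMT2A, 27 for KMT2D and 55 for SMARCA4, against a median of 14 and quartiles of 4 and 28 over all 35116 RefSeq promoters of that length. GC boxes numbered 2, 3, 2 and 5 in the same order. SMARCA4 has a second RefSeq entry, chr19:10983874-10984173 on the plus strand, with 5 CG dinucleotides and 0 GC boxes. The entry that lies upstream of it was the one shown, and which of them is used in these cells was not analysed here. A GC box occurred in 9 of the 12 member promoters and in 45.0% of all promoters. The E-box CACGTG occurred in 2 of 12 and in 7.26% of all, and CCAAT, searched on both strands, in 1 of 12 and in 34.6% of all. TGACG, the short form of the cyclic AMP response element, occurred in 3 of 12 and in 24.6% of all, while TATAAA was in none of the 12 windows and in 11.5% of all. KDM6A and KMT2D are the genes whose windows hold CACGTG. A match is a description of the letters and not a site shown to be bound.

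On arrays labelled NALM-6, GSK126 went with lower KDM6A and SMARCA4 and with higher KMT2A. In all, 18 of the 40 member probe sets were called there, 8 higher and 10 lower, which is 45.0% against 41.1% of all probe sets tested. A share this near the background is not a result about the members as a set. In bulk RNA, fewer expressing cells and less RNA per cell cannot be told apart. The members' median difference was -0.08, and the range was -0.47 to 0.51. GSK126 and DMSO arrays did not overlap at 32 of the 40 member probe sets and at 70.3% of all probe sets, so a lack of overlap is common there. On arrays labelled SUP-B8, 0 of the 40 were called by limma, where 1.55% of all probe sets were, and 1 had an unadjusted p under 0.05, as had 3998 of all 24848. Arrays did not overlap at 17 of the 40 and at 48.9% of all. The members' median difference there was -0.04, and the range was -0.31 to 0.17. Leaving out single arrays kept the SUP-B8 member count at 0, and the NALM-6 member count lay between 14 and 20.

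**Figure D1:**
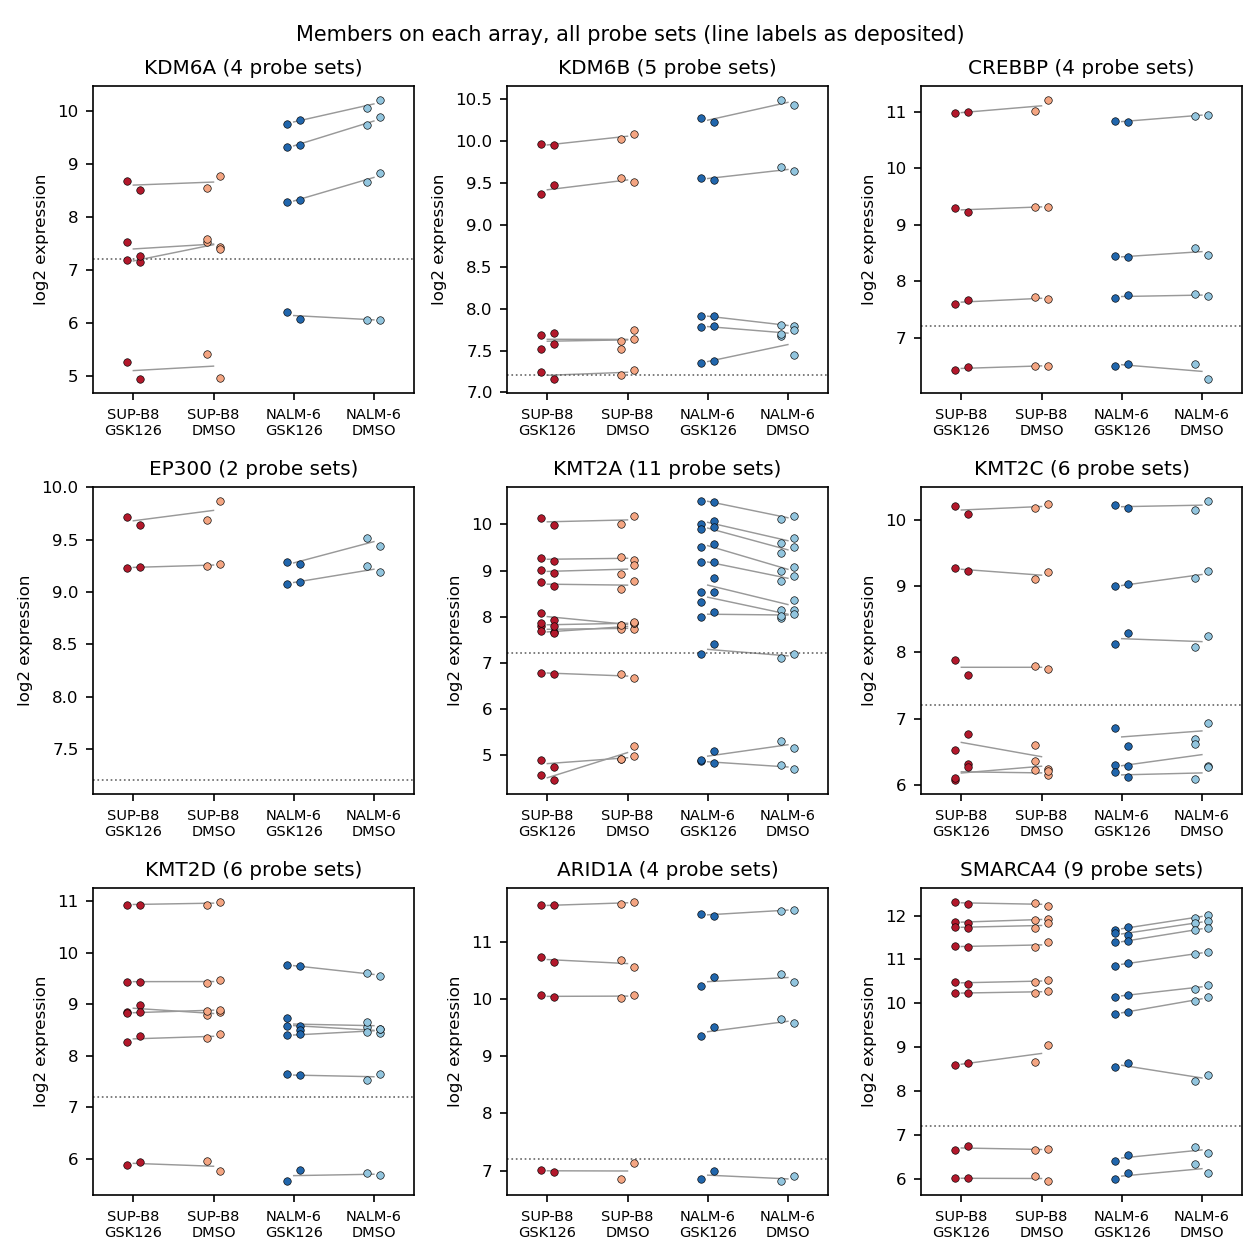
Log2 level (vertical axis) of all 51 member probe sets on each of the 8 arrays, one panel per gene, with GSK126 left of DMSO for each labelled line. Points are arrays, grey lines join the group means of one probe set, and the dotted line is the median of the array medians. KDM6A probe sets stand lower on SUP-B8 arrays than on NALM-6 arrays, and KMT2D probe set 227527_at stands higher.

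KDM6A, the X-linked H3K27 demethylase that also belongs to the KMT2C and KMT2D complexes, was lower with GSK126 on NALM-6 arrays for 3 of its 3 tested probe sets. Probe set 203991_s_at read 9.31 and 9.36 with GSK126, against 9.73 and 9.88 with DMSO. The treated arrays lay below the vehicle arrays without overlap, and a lack of overlap was seen at 70.3% of all probe sets. The difference was -0.47 ± 0.07 (SE, n = 2 against 2, adjusted p = 0.000739). Probe set 203990_s_at read 8.28 and 8.31 with GSK126 and 8.66 and 8.82 with DMSO, a difference of -0.44 ± 0.10 (adjusted p = 0.00926). Probe set 203992_s_at differed by -0.34 ± 0.09 (adjusted p = 0.0206), with 9.74 and 9.83 under GSK126 and 10.05 and 10.20 under DMSO. The call for 203991_s_at held in every alternative run. That for 203990_s_at was lost without NALM-6 DMSO replicate 2 (adjusted p = 0.0663), and that for 203992_s_at without the same array (0.125) or without NALM-6 GSK126 replicate 1 (0.102).

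On SUP-B8 arrays no KDM6A probe set was called. Probe set 203991_s_at read 7.18 and 7.15 with GSK126, below the array medians, against 7.52 and 7.42 with DMSO. The groups did not overlap, as at 48.9% of all probe sets, and the difference of -0.31 ± 0.07 missed the threshold (adjusted p = 0.0663). The GSK126 arrays were not shown to be above background. The mean of the DMSO arrays lay 0.28 above the medians of the GSK126 arrays, a distance that was not tested. Under a renewed quantile normalization, and under a trended robust prior, this probe set was called. The other KDM6A probe sets differed by -0.06 and -0.09 with overlapping arrays. The difference of the responses, SUP-B8 minus NALM-6, was called at 0 of the 3 tested KDM6A probe sets. It was 0.16 at 203991_s_at (adjusted p = 0.243), 0.28 at 203992_s_at (0.162) and 0.35 at 203990_s_at (0.116). With a replicate block the last was called (0.0325). A response of KDM6A that differs between the lines was therefore not shown.

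Between the lines under DMSO, KDM6A was lower on SUP-B8 arrays at all 3 tested probe sets. In that comparison 26 of the 40 member probe sets were called, 13 higher and 13 lower, which is 65.0% against 70.1% of all probe sets tested. One of the lower calls, KMT2A 1565436_s_at, passed the filter through NALM-6 arrays alone, and without it 25 of 39 were called, 12 of them lower. Arrays of the lines did not overlap at 35 of the 40 member probe sets and at 82.8% of all. KDM6A 203991_s_at, with the 7.52 and 7.42 on SUP-B8 arrays and the 9.73 and 9.88 on NALM-6 arrays given above, differed by -2.33 ± 0.07 (adjusted p = 9.2e-09), a 5.03-fold lower level on SUP-B8 arrays. Probe set 203992_s_at read 8.54 and 8.76 on SUP-B8 arrays and differed by -1.47 ± 0.09 (adjusted p = 1.34e-06). Probe set 203990_s_at, with 7.58 and 7.39 on SUP-B8 arrays, differed by -1.26 ± 0.10 (adjusted p = 6.53e-06). At 203991_s_at the levels ran from NALM-6 with DMSO through NALM-6 with GSK126 down to the SUP-B8 arrays. The step between NALM-6 with GSK126 and SUP-B8 with DMSO was not tested.

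By the root mean square difference between profiles centred over the 8 arrays, the genes most like KDM6A 203991_s_at among 13160 searched were IL21R (0.0847), CR2 (0.0861) and GPR183 (0.105). These are an interleukin receptor, a complement receptor and a chemotactic receptor of B cells. IL21R, above the array medians on all 8 arrays, had GSK126 minus DMSO differences of -0.31 on SUP-B8 and -0.42 on NALM-6 arrays. CR2 and GPR183 lay below the array medians on all SUP-B8 arrays, and GPR183 also on NALM-6 arrays with GSK126, so their likeness rests partly on values not shown to be above background, as KDM6A's does on SUP-B8 arrays with GSK126. The likeness was chosen by value and is a description.

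KDM6B, the paralogous demethylase that is induced by inflammatory and developmental signals, changed at 1 of its 5 probe sets on NALM-6 arrays. Probe set 41387_r_at read 10.27 and 10.23 with GSK126 and 10.49 and 10.43 with DMSO, a difference of -0.21 ± 0.05 (adjusted p = 0.0115). The call was lost without NALM-6 DMSO replicate 1 (0.0546) and without NALM-6 GSK126 replicate 2 (0.0795). KDM6B probe set 213146_at differed by -0.20 ± 0.08 (adjusted p = 0.0852), and the other 3 differed by -0.11 to 0.11. The mean of the KDM6B probe sets differed by -0.07 (adjusted p = 0.295), so that the probe sets disagree. On SUP-B8 arrays the 5 KDM6B differences lay between -0.12 and 0.00. Between the lines under DMSO, 41387_r_at read 10.03 and 10.08 on SUP-B8 arrays and differed by -0.40 ± 0.05 (adjusted p = 0.00012), 213146_at by -0.33 (0.00638) and 1556067_a_at by -0.17 (0.0488), each lower on SUP-B8 arrays. The last call was lost in 6 of the 8 fits that leave out an array. It was also lost with no filter on dim probe sets, with only the 4 arrays compared and with a trended robust prior.

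CREBBP and EP300, the paired acetyltransferases that write H3K27 acetylation, were not called for GSK126 in either line, in the table of all probe sets. CREBBP 202160_at read 10.98 and 10.99 with GSK126 and 11.01 and 11.21 with DMSO on SUP-B8 arrays, and 10.83 and 10.82 with GSK126 and 10.93 and 10.95 with DMSO on NALM-6 arrays. The differences were -0.12 ± 0.07 on SUP-B8 arrays (adjusted p = 0.426) and -0.11 on NALM-6 arrays (adjusted p = 0.227). EP300 202221_s_at read 9.29 and 9.27 with GSK126 and 9.52 and 9.44 with DMSO on NALM-6 arrays, a difference of -0.20 ± 0.07 that just missed the threshold (adjusted p = 0.0521). In the fit that keeps 1 probe set per gene, the same probe set has an adjusted p of 0.0498, and the mean of both EP300 probe sets differed by -0.16 with an adjusted p of 0.0302. The EP300 call therefore differs between these fits. Probe set 213579_s_at differed by -0.13 ± 0.05 (adjusted p = 0.0779). On SUP-B8 arrays 202221_s_at read 9.72 and 9.64 with GSK126 and 9.69 and 9.87 with DMSO, and the arrays overlapped.

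Under DMSO each of these enzymes was higher on SUP-B8 arrays at 1 probe set. CREBBP 228177_at read 9.31 and 9.32 on SUP-B8 arrays and 8.59 and 8.46 on NALM-6 arrays under DMSO, and was higher on SUP-B8 arrays by 0.79 ± 0.06 (adjusted p = 3.87e-06). The 2 other CREBBP probe sets differed by 0.16 (0.0607) and -0.06 and were not called. EP300 202221_s_at was higher on SUP-B8 arrays by 0.30 ± 0.07 (adjusted p = 0.00521), and 213579_s_at differed by 0.04, a disagreement between its probe sets. With a replicate block, which reads the lines at replicate 1 only, the call for 202221_s_at was lost (0.25, adjusted p = 0.0525). The block was fitted within each line, so this is another quantity than the difference of group means.

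KMT2A, the H3K4 methyltransferase first known as MLL and often fused to other genes in acute leukaemia, rose with GSK126 on NALM-6 arrays at 7 of its 9 tested probe sets. Probe set 212080_at read 9.51 and 9.57 with GSK126, against 8.98 and 9.07 with DMSO, and the difference was 0.51 ± 0.08 (adjusted p = 0.00102), which is 1.43-fold. The other 6 called probe sets rose by 0.35 to 0.47. Among them 244110_at read 9.91 and 9.94 with GSK126 and 9.37 and 9.52 with DMSO (0.47 ± 0.07, adjusted p = 0.00093), and 226981_at read 10.51 and 10.49 with GSK126 and 10.11 and 10.19 with DMSO (0.36 ± 0.08, adjusted p = 0.00674). The GSK126 arrays lay above the DMSO arrays at these 3 probe sets, a separation that 70.3% of all probe sets showed in one direction or the other. Calls for 212079_s_at and 220546_at were lost without NALM-6 DMSO replicate 1 (0.0786 and 0.0917) or NALM-6 GSK126 replicate 2 (0.0841 and 0.0896). Neither of the 2 remaining tested probe sets, 216624_s_at at 0.02 and 1565436_s_at at 0.14, was called.

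On SUP-B8 arrays, KMT2A 212080_at read 9.02 and 8.94 with GSK126 and 8.93 and 9.13 with DMSO, overlapping groups with a difference of -0.05 ± 0.08. The 9 KMT2A differences there lay between -0.12 and 0.17. The difference of the responses, SUP-B8 minus NALM-6, was tested as an interaction, and 10 of the 40 member probe sets were called, 3 higher and 7 lower, which is 25.0% against 26.4% of all probe sets tested. KMT2A held 6 of the 7 that were lower, with interactions of -0.33 to -0.56. For 212080_at the interaction was -0.56 ± 0.11 (adjusted p = 0.00682), for 244110_at -0.49 ± 0.10 (0.00784) and for 212078_s_at -0.42 (0.0104), and these 3 were called in every alternative run. The genes most like KMT2A 212080_at in profile were RAB1A (0.0547), COPG1 (0.0561) and HTRA2 (0.0561), with GSK126 minus DMSO differences on NALM-6 arrays of 0.43 for RAB1A, 0.53 for COPG1 and 0.39 for HTRA2.

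**Figure D2:**
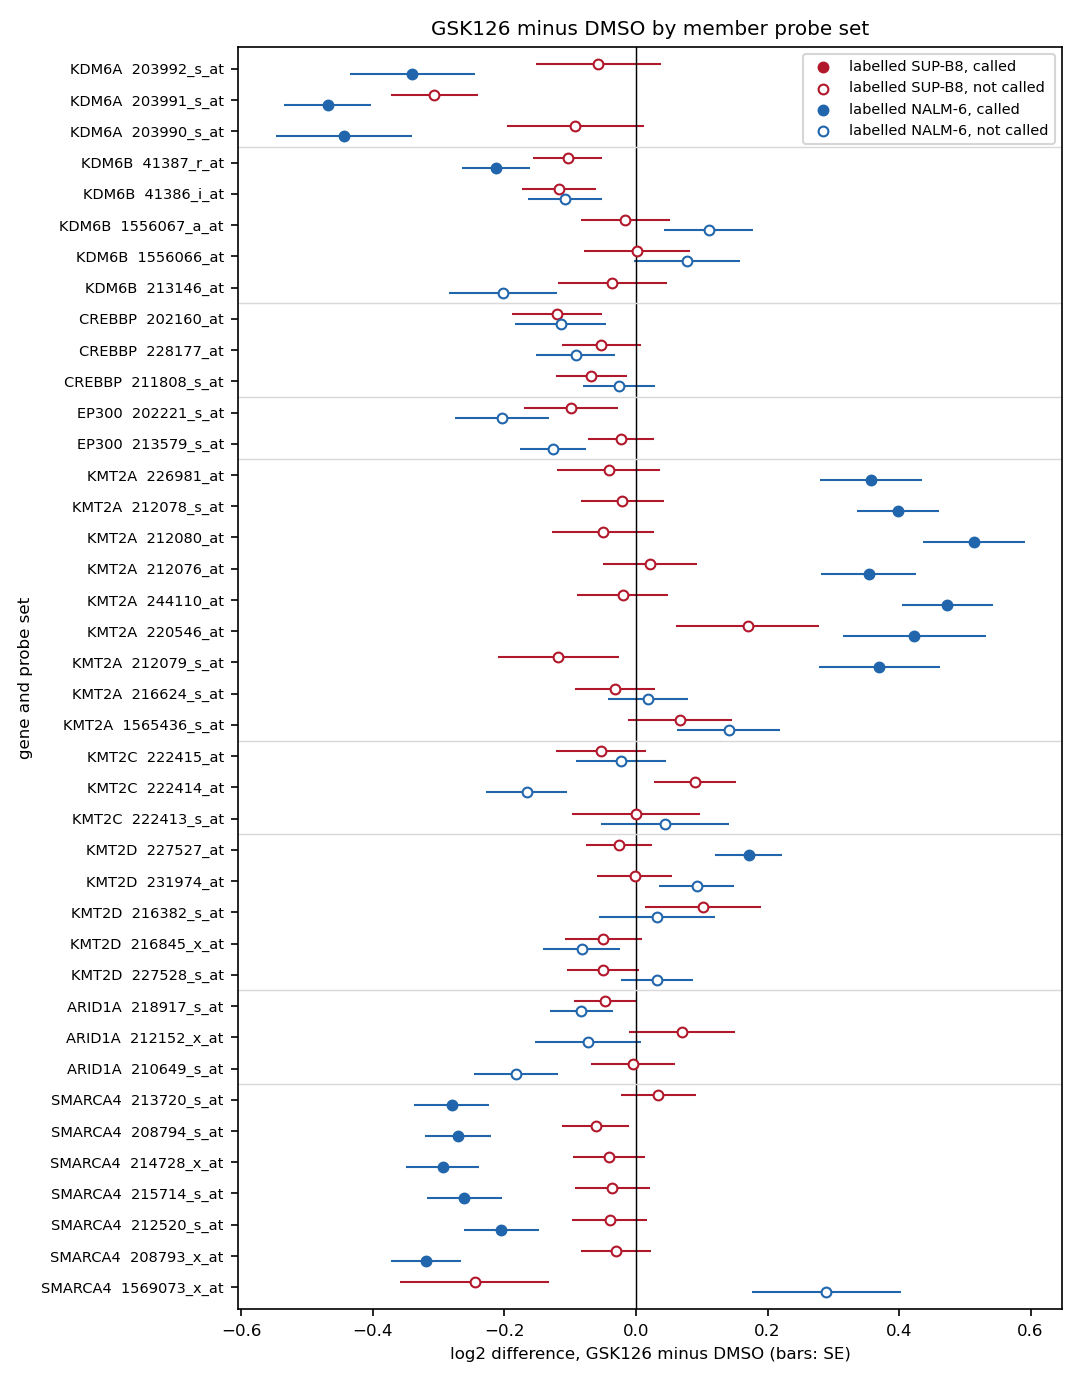
GSK126 minus DMSO difference in log2 level (horizontal axis) for each tested member probe set, with arrays labelled SUP-B8 in red above those labelled NALM-6 in blue, called probe sets filled and error bars showing the SE. KMT2A probe sets lie to the right of 0 on NALM-6 arrays and near 0 on SUP-B8 arrays, while KDM6A and most SMARCA4 probe sets lie to the left on NALM-6 arrays.

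Under DMSO the KMT2A probe sets disagreed between the lines. Probe set 244110_at read 7.77 and 7.72 on SUP-B8 arrays and 9.37 and 9.52 on NALM-6 arrays, a difference of -1.70 ± 0.07 (adjusted p = 7.98e-08). Probe set 212080_at differed by 0.00 (adjusted p = 0.962), with overlapping arrays, and 226981_at by -0.05 (0.616). The calls at 212078_s_at (-0.38), 220546_at (-0.43), 212079_s_at (-0.27) and 216624_s_at (-0.18) all had the lower side on SUP-B8 arrays. Probe set 1565436_s_at was tested only because 2 NALM-6 arrays lay above their medians, so its call between the lines supports nothing. Without NALM-6 DMSO replicate 2 the calls for 212079_s_at (0.179), 216624_s_at (0.115) and 220546_at (0.054) were lost, and without SUP-B8 DMSO replicate 1 the first 2 of these (0.150 and 0.128). With a replicate block, which reads the lines at replicate 1 only, the calls for 212079_s_at (adjusted p = 0.0808) and 216624_s_at (0.160) were lost. That for 216624_s_at was also lost with no filter on dim probe sets, with only the 4 arrays compared and with a trended robust prior. Which transcript or region each probe set reads was not analysed here.

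KMT2C and KMT2D, the paired enzymes that place H3K4 monomethylation at enhancers, had GSK126 minus DMSO differences between -0.05 and 0.10 on SUP-B8 arrays and between -0.17 and 0.17 on NALM-6 arrays. KMT2C 222415_at read 10.21 and 10.09 with GSK126 and 10.18 and 10.24 with DMSO on SUP-B8 arrays, and 10.23 and 10.18 with GSK126 and 10.16 and 10.29 with DMSO on NALM-6 arrays. Its arrays overlapped in both lines, and 222414_at differed by 0.09 on SUP-B8 arrays and by -0.17 ± 0.06 on NALM-6 arrays (adjusted p = 0.0624). KMT2D 227527_at read 9.76 and 9.75 with GSK126 and 9.61 and 9.56 with DMSO on NALM-6 arrays, a difference of 0.17 ± 0.05 (adjusted p = 0.0264). The call was lost without NALM-6 DMSO replicate 2 (difference 0.15), NALM-6 GSK126 replicate 1 (0.17) or replicate 2 (0.18). It was also lost with arrays centred on their medians (adjusted p = 0.100) and with no filter on dim probe sets (0.0688). The same held with only the 4 arrays compared (0.0555) and with a replicate block (0.0646). The mean of all 6 KMT2D probe sets, tested or not, differed by 0.04 (adjusted p = 0.561). On SUP-B8 arrays 227527_at read 10.94 and 10.94 with GSK126 and 10.94 and 10.99 with DMSO.

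KMT2D had the largest positive difference among the members between the lines. Under DMSO, 227527_at, with the values just given, differed by 1.38 ± 0.05 (adjusted p = 4.14e-08), a 2.61-fold higher level on SUP-B8 arrays. Probe sets 227528_s_at and 231974_at differed by 1.29 ± 0.05 and 0.95 ± 0.06, with 227528_s_at at 8.88 and 8.90 on SUP-B8 arrays and 7.54 and 7.65 on NALM-6 arrays. KMT2D 216382_s_at was higher by 0.24 (adjusted p = 0.0389), and 216845_x_at differed by -0.11 (0.133). The call for 216382_s_at was lost when NALM-6 DMSO replicate 2 or either SUP-B8 DMSO array was left out. It was also lost with no filter on dim probe sets (0.0622) and a renewed quantile normalization (0.0767). The same held for a replicate block (0.311), which reads the lines at replicate 1 only. KMT2C was called at 1 of 3 tested probe sets, 222413_s_at (7.80 and 7.75 on SUP-B8 arrays, 8.08 and 8.25 on NALM-6 arrays, -0.39 ± 0.10, adjusted p = 0.0065). That call was lost without NALM-6 DMSO replicate 2 (0.0519), and the other KMT2C probe sets differed by -0.02 and -0.01.

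SMARCA4, the ATPase of the SWI/SNF complex, was lower with GSK126 on NALM-6 arrays at 6 of its 7 tested probe sets. Probe set 213720_s_at read 11.67 and 11.73 with GSK126, against 11.95 and 12.01 with DMSO, a difference of -0.28 ± 0.06 (adjusted p = 0.00467). The other 5 called probe sets fell by between 0.20 and 0.32 on the log2 scale, with GSK126 arrays below the DMSO arrays. Such a separation, in one direction or the other, was seen at 70.3% of all probe sets. Probe set 208793_x_at, whose suffix marks probes that may match other transcripts, read 9.76 and 9.81 with GSK126 and 10.06 and 10.14 with DMSO (-0.32 ± 0.05, adjusted p = 0.00181). Leaving out NALM-6 GSK126 replicate 1 ended the call for 215714_s_at (0.0548), and leaving out NALM-6 DMSO replicate 2 or either GSK126 array ended that for 212520_s_at (0.0551 to 0.115). Probe set 1569073_x_at went the other way without passing the test, at 8.54 and 8.64 with GSK126 and 8.23 and 8.37 with DMSO (0.29 ± 0.11, adjusted p = 0.0733). It was called as higher in 5 of 15 alternative runs. Among these were only the 4 arrays compared (adjusted p = 0.0199), a replicate block (0.0323) and a trended robust prior (0.0247). On SUP-B8 arrays SMARCA4 213720_s_at read 12.31 and 12.27 with GSK126 and 12.29 and 12.22 with DMSO, and 0 of 7 probe sets were called.

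Of the SMARCA4 interactions, 213720_s_at (0.31), 208793_x_at (0.29) and 214728_x_at (0.25) were called as higher in the SUP-B8 response and 1569073_x_at as lower (-0.53, adjusted p = 0.0403). Each was lost when at least 1 array was left out. Under DMSO, where 70.1% of all probe sets were called between the lines, SMARCA4 was higher on SUP-B8 arrays at 4 of 7 tested probe sets. Among them were 213720_s_at, by 0.28 (adjusted p = 0.0021), and 1569073_x_at, by 0.56 (0.00196). The calls for 208793_x_at and 215714_s_at were lost without NALM-6 DMSO replicate 1 (differences 0.12 and 0.16) or SUP-B8 DMSO replicate 2 (0.14 and 0.13). Both were also lost with only the 4 arrays compared (adjusted p = 0.0786 and 0.0565). They were lost too with a replicate block (0.0677 and 0.0794), which reads the lines at replicate 1 only. That for 208793_x_at was lost with no filter on dim probe sets and with arrays centred on their medians as well. The mean of all 9 SMARCA4 probe sets, tested or not, kept the GSK126 call on NALM-6 arrays (-0.19, adjusted p = 0.0106). It did not keep the interaction (0.15, adjusted p = 0.139).

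ARID1A, the DNA-binding subunit that is often lost in cancers, was called for GSK126 in neither line. Probe set 210649_s_at read 9.35 and 9.50 with GSK126 and 9.64 and 9.57 with DMSO on NALM-6 arrays, and its difference of -0.18 ± 0.06 missed the threshold (adjusted p = 0.0509). Without NALM-6 GSK126 replicate 2 the adjusted p was 0.0336. Under DMSO this probe set read 10.02 and 10.07 on SUP-B8 arrays and was higher there by 0.44 ± 0.06 (adjusted p = 0.000259), while 212152_x_at and 218917_s_at were higher by 0.24 and 0.13. The last 2 calls were lost when single arrays were left out, 218917_s_at in each of the 8 such fits. That for 218917_s_at was also lost with no filter on dim probe sets and with only the 4 arrays compared. The same held with arrays centred on their medians and with a replicate block, which reads the lines at replicate 1 only.

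**Figure D3:**
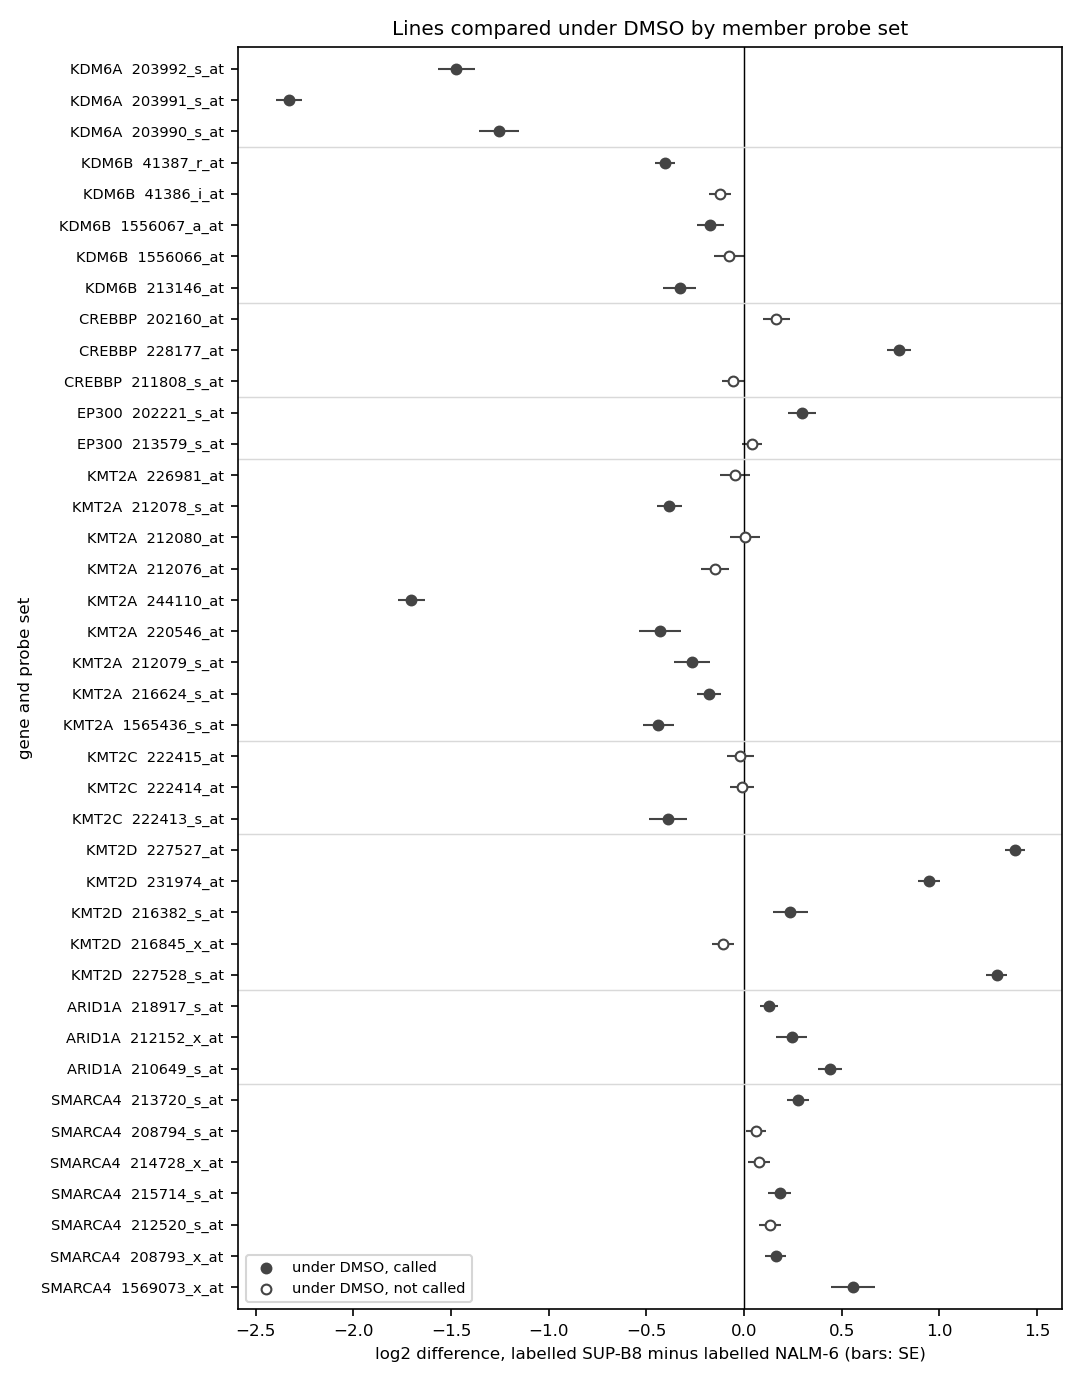
SUP-B8 minus NALM-6 difference in log2 level under DMSO (horizontal axis) for each tested member probe set, with error bars showing the SE and called probe sets filled. KDM6A probe sets and KMT2A 244110_at lie at the low end and 3 KMT2D probe sets at the high end.

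Partners of these enzymes were read from 5 lists, each gene represented by the probe set of highest mean level. Single partner genes were not followed through the alternative runs, so how far their calls rest on 1 array was not tested. On SUP-B8 arrays 0 of 64 tested partner genes were called by limma, against 2.25% of all 13161 genes tested, and 7 had an unadjusted p under 0.05, as had 2198 of the 13161. On NALM-6 arrays, where 39.3% of genes were called, the acetyltransferase, bromodomain reader and deacetylase list had 3 higher and 7 lower of 12 tested. BRD3 (0.35) and BRD2 (0.21), readers of acetylated histones, rose, HDAC2 rose by 0.20, and HDAC1 (-0.39), a deacetylase, and the acetyltransferases KAT2B (-0.31) and KAT8 (-0.29) fell. The list median was -0.24, against 0.02 for all genes. The H3K36 and ASH1L methyltransferases had 3 of 4 lower, SETD2 (-0.50), NSD3 (-0.42) and NSD2 (-0.37), with a list median of -0.39.

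SWI/SNF partners had 2 higher and 7 lower of 24 tested on NALM-6 arrays, where 39.3% of all genes were called. PHF10 (0.22) and BRD9 (0.21) rose, and BCL7A (-0.48), ARID2 (-0.44) and BRD7 (-0.28) fell, with a list median of -0.0024. KMT2 and COMPASS partners had 3 higher and 1 lower of 14. PAGR1 (0.35), SETD1B (0.30) and CXXC1 (0.15, limma adjusted p = 0.0321) rose, and RBBP5, a core scaffold subunit of these complexes, fell (-0.36). BAP1 partners had 3 higher and 2 lower of 10, with MBD5 (0.25), UBE2O (0.20) and OGT (0.20) up and KDM1B (-0.45) and FOXK2 (-0.35) down.

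In the test of the difference of responses, where 25.4% of genes were called, SETD1B (-0.50) and PAGR1 (-0.42) were lower in the SUP-B8 response and RBBP5 (0.39) higher. BCL7A (0.59), SETD2 (0.42), BRD7 (0.40), NSD3 (0.38) and NSD2 (0.32) were higher as well, and MBD5 (-0.40), BRD9 (-0.29), BRD2 (-0.27) and OGT (-0.24) were lower. By list, KMT2 and COMPASS partners had 1 higher and 2 lower of 14, SWI/SNF partners 4 and 1 of 24, BAP1 partners 2 and 2 of 10, H3K36 and ASH1L methyltransferases 3 and 0 of 4, and the acetyltransferase list 4 and 1 of 12. Under DMSO, where 68.3% of genes were called, the KMT2 and COMPASS partners had 10 higher and 3 lower of 14 on SUP-B8 arrays, with a median of 0.46 against 0.04 for all genes. PAGR1 (1.12), SETD1B (1.004) and HCFC1 (0.74) were higher and PSIP1 (-1.10), ASH2L (-0.44) and RBBP5 (-0.25) lower. SWI/SNF partners split evenly, with 8 higher and 8 lower of 24, led by BRD9 (0.87) and PBRM1 (0.73) above and BICRAL (-1.12) and SMARCC2 (-0.79) below. BAP1 partners had 6 higher and 2 lower of 10, with KDM1B (1.03) and ASXL1 (-0.77) at the ends, and the acetyltransferase list had 4 higher and 8 lower of 12, with KAT2A (0.74) and KAT2B (-0.74). Of the H3K36 and ASH1L methyltransferases NSD1 (0.30) was higher and NSD3 (-0.70), NSD2 (-0.36) and SETD2 (-0.23) lower.

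**Figure D4:**
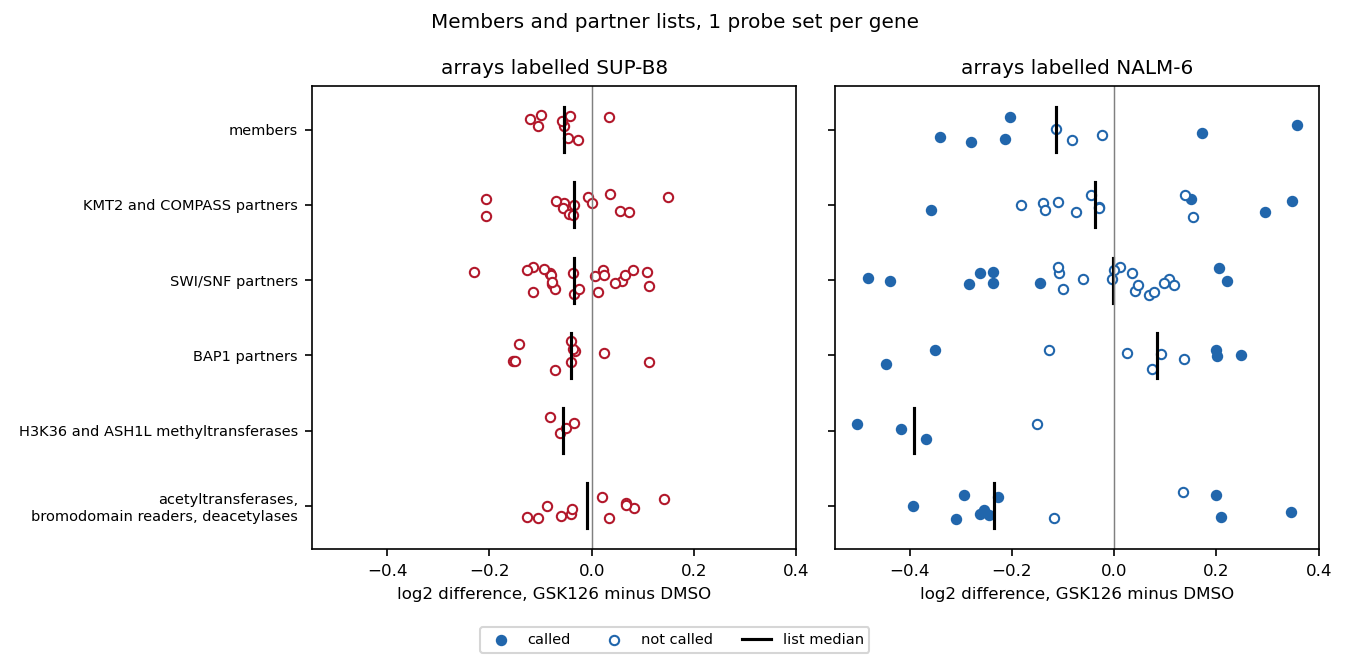
Log2 difference (horizontal axis) of the members and of every tested gene of the 5 partner lists, GSK126 minus DMSO, on SUP-B8 arrays in the left panel and NALM-6 arrays in the right one, with called genes filled and list medians as black bars. The SUP-B8 panel holds no called gene, and on NALM-6 arrays SETD2 and BCL7A lie at the low end.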

How the data were processed

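The authors deposited a log2 value for each probe set on each array. MAS5 and RMA are the tools that the submitters' processing notes name, and what each did is not given in the sources used here. That the scale is log2, with arrays already normalized to each other, was inferred from the values, so no transformation was applied. Such normalization hides a shift shared by most transcripts. No detection calls were used, and the number of arrays limits precision. Of 54675 probe sets, 41097 had 1 gene symbol, 1801 several and 11777 none in the annotation used here. Groups came from the sample labels, and no 2 arrays were identical.

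Group means were fitted with limma 3.58.1 in R 4.3.3 over all 8 arrays with 4 residual degrees of freedom, on 24848 probe sets, and on 13161 genes by the probe set of highest mean level. The fit was tested on simulated data with changes of 0.5 and 1, and smaller changes were not simulated. At 0.5, 99% of changed probe sets were recovered for GSK126 on SUP-B8 arrays and 97% on NALM-6 arrays. Between the lines it was 98%, and for the difference of responses 67%. Of the simulated probe sets called, 4.02% to 7.04% were false. The named genes were all members, up to 3 called genes per direction from each partner list (2 of largest size where none was called), EZH2 and the 3 genes most like the member with the largest response in each line. Members and lists were chosen with earlier results of these data known. A group below the array medians on all its arrays was taken as not shown above background, a limit chosen after results were seen. Alternatives covered filters, normalization, the prior, probe set summaries, a block and left-out arrays.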

Additional observations from a re-analysis of the deposited data

Results flagged for a closer look

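The responses to GSK126, SUP-B8 minus NALM-6, differed by the interaction test at 10 of the 40 tested member probe sets. This is 25.0%, against 26.4% of all probe sets tested. Of these 10, 3 were called in every alternative under which they were tested. For KMT2A the difference of responses was -0.56 at 212080_at, -0.49 at 244110_at, -0.49 at 212079_s_at, -0.42 at 212078_s_at, -0.40 at 226981_at and -0.33 at 212076_at, so that the response of each of these 6 was more positive on NALM-6 arrays. For SMARCA4 it was 0.31 at 213720_s_at, 0.29 at 208793_x_at and 0.25 at 214728_x_at, and -0.53 at 1569073_x_at, whose differences of -0.25 on SUP-B8 arrays and 0.29 on NALM-6 arrays were not called by themselves.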

How the results depend on the processing

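With 2 arrays a group, 1 array can decide a call. No called member difference changed sign in any alternative under which its probe set was tested, and 10 of 18 GSK126 calls on NALM-6 arrays, 15 of 26 calls between the lines and 3 of 10 interactions were called in every such alternative. KMT2A 1565436_s_at, among these 15, passed the filter through NALM-6 arrays alone, so its call between the lines supports nothing. It was also not tested with the filter of 4 of 8 arrays. EP300 202221_s_at is missing from the 15 only through the replicate block, which reads the lines at replicate 1. The count of interactions called among members, 10 of 40, was 5 of 51 with no filter on dim probe sets, and fell whenever 1 array was left out. It was 4 without SUP-B8 GSK126 replicate 1 or either NALM-6 GSK126 array, 5 without SUP-B8 GSK126 replicate 2 or NALM-6 DMSO replicate 1, and 6 without SUP-B8 or NALM-6 DMSO replicate 2. On SUP-B8 arrays the member count of 0 was 1 under a renewed quantile normalization and under a trended robust prior. The count over all probe sets there, 385, was 220 with no filter, 240 with only the 4 arrays compared and 1190 with the trended robust prior, and 38 to 318 with one array left out. Of the SUP-B8 arrays, leaving out GSK126 replicate 1 gave 38, GSK126 replicate 2 gave 72, DMSO replicate 2 gave 89 and DMSO replicate 1 gave 166. The cause of these shifts was not tested.

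Samples share only a replicate number: deviations of same-numbered arrays correlated at 0.0035 on NALM-6 and -0.0264 on SUP-B8 arrays. With a replicate block, member calls were 0 on SUP-B8 arrays, 18 on NALM-6 arrays and 8 for the interaction. Between the lines they were 19, against 26 without it. The block was fitted within each line, so its between-line difference is the one fitted for replicate 1, not the difference of group means. At KMT2D 216382_s_at it was 0.10, against 0.24 without the block. The 19 therefore does not show how far the calls between the lines depend on pairing.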
